A study of Mus musculus with 9 samples.

Results

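The conjugating enzymes described here were the glutathione S-transferases (GST), the UDP-glycosyltransferases (UGT) and the cytosolic sulfotransferases (SULT) measured on arrays of mouse liver. Members were chosen by name alone. A probe set was a member if the array annotation gave it exactly 1 gene symbol, and if that symbol was a GST of the alpha, kappa, mu, omega, pi, theta or zeta class, a UGT of families 1 to 3 or a SULT of families 1 to 5. Of 28815 probe sets, 44 qualified and covered 43 genes, with 20 probe sets for GST, 10 for UGT and 14 for SULT. *Gstm3* was the gene with 2 probe sets. No UGT of family 1 was a member, since the *Ugt1a* transcripts share a probe set that carries several symbols.

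Conjugation attaches a polar group to a foreign compound, a hormone or a waste product, so that transporters can carry it into bile or blood. GSTs attach the tripeptide glutathione to reactive electrophiles, including aldehydes made by lipid peroxidation. UGTs transfer a sugar, mostly glucuronic acid, to bilirubin, steroids, bile acids and drugs, and SULTs transfer sulfate to steroids, bile acids, catecholamines and phenols. In the liver most of this work is done by hepatocytes, and several of the genes are known targets of receptors that sense foreign compounds.

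The livers came from 9 female mice aged 15 to 16 months, all on a C57BL/6J background, with 1 mouse per array and 3 mice per group. The methods give standard chow for all studies, but call the food of the restricted mice a calorie restriction diet without its composition. WTCR mice were wild type under short-term calorie restriction, with food intake cut in a pair of steps over several weeks. *Dgat1*-/-AL mice lacked *Dgat1*, whose product joins the third fatty acid to diacylglycerol to make triglyceride, in the whole body and ate ad libitum, and WTAL mice were wild type and ate ad libitum. The study asked whether calorie restriction and the loss of DGAT1 share regulatory pathways in liver.

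Values are log2 signals after RMA, so a difference of 1 is a doubling. The hepatocyte markers *Alb*, *Apoa1*, *Ttr* and *Cyp2e1* averaged 13.74 to 13.93 in every array, and 0 of these 4 were called in any comparison. The *Dgat1* log2 signal was 8.90, 8.76 and 8.56 in WTCR, 6.14, 5.84 and 5.39 in *Dgat1*-/-AL, and 7.86, 5.67 and 8.04 in WTAL. In *Dgat1* signal alone, the array labelled WTAL replicate 2 thus lay among the knockouts and went against its label. Whether the array was mislabelled was not tested, and it stayed in its labelled group. Results against WTAL are also given without it where it mattered. *Dgat1*-/-AL replicate 1 stood apart from the other 8 arrays on the second principal component.

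A probe set was called at a fold over 1.3 with an unadjusted p under 0.05 from limma, fitted over all 28815 probe sets and all 9 arrays, and p was also given after Benjamini-Hochberg adjustment over the whole array. The p-values measure the spread between the mice of these groups. Differences are log2 fold changes with their standard error from limma and n = 3 mice per group. Of the 44 members, 38 had a mean log2 signal at or above the median of all probe sets, 5.83. The 6 below it were *Gsto2*, *Gstt4*, *Sult1c1*, *Sult2a6*, *Sult2b1* and *Sult4a1*, and none of them was called in any of the 3 comparisons.

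**Figure D1:**
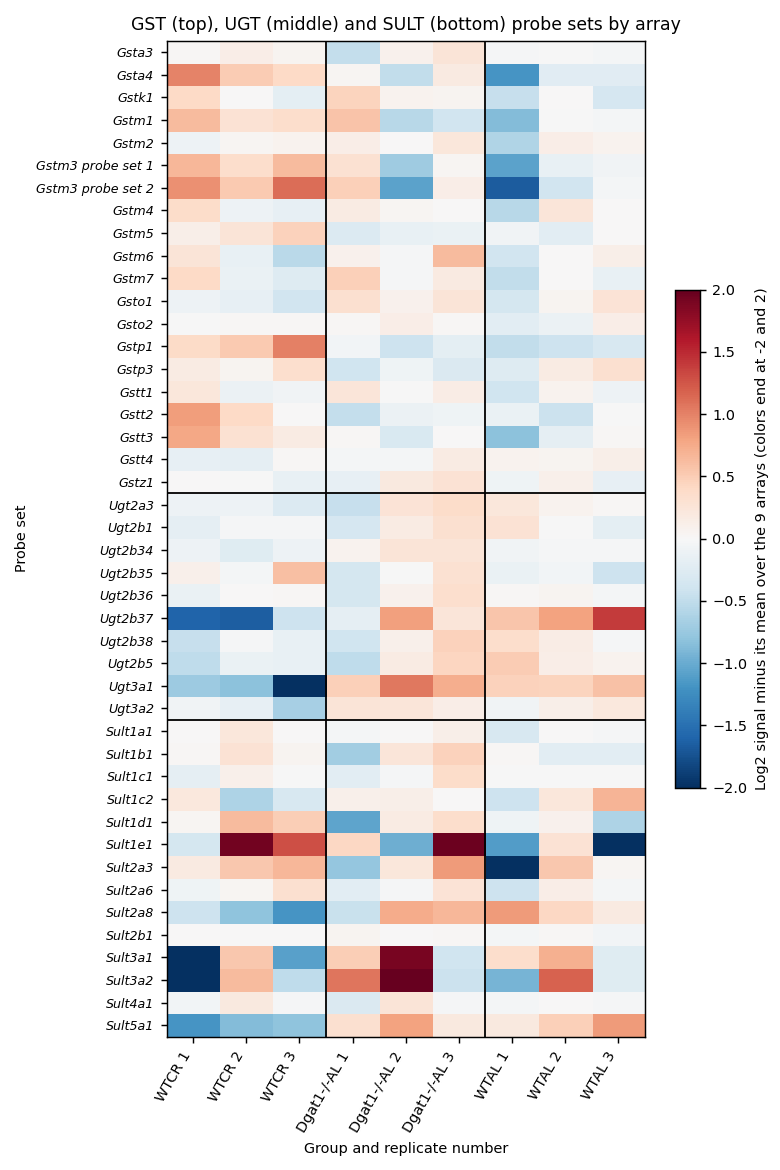
Log2 signal of each of the 44 member probe sets (rows, by family) in each of the 9 arrays (columns, by group and replicate), as the difference from its mean over the 9 arrays, with colors ending at -2 and 2. *Gsta4*, *Gstp1* and both *Gstm3* probe sets are above their mean in all 3 WTCR arrays, while *Ugt2b37*, *Ugt3a1*, *Sult2a8* and *Sult5a1* are below it there.

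Of 20 GST probe sets 7 were higher than in WTAL and 0 were lower, covering *Gsta4*, *Gstm1*, *Gstm3*, *Gstp1*, *Gstt2* and *Gstt3*. Of 10 UGT probe sets 2 were lower, *Ugt2b37* and *Ugt3a1*, and of 14 SULT probe sets 2 were lower, *Sult2a8* and *Sult5a1*, with 0 higher in either family. In all, 11 of 44 members were called (25%), against 8.06% of all probe sets (15.9% against 4.25% higher and 9.09% against 3.81% lower). At an adjusted p under 0.05 there were 4 members, *Gstp1*, *Ugt2b37*, *Ugt3a1* and *Sult5a1*, or 9.09% against 3.03% of all probe sets. The median log2 fold change was 0.18 for GST, with 17 of 20 probe sets above 0, and -0.32 for UGT, with 9 of 10 below 0. It was 0.04 for SULT and 0.0 over all probe sets. Without the array labelled WTAL replicate 2 there were again 7 GST higher, with *Gstk1* (0.47) in place of *Gstt2*, 1 SULT was higher, *Sult1e1*, and the GST median was 0.31. In the UGT family *Ugt2b35* was called higher without WTCR replicate 2 (0.56), without *Dgat1*-/-AL replicate 1 (0.42) or with array weights (0.52). *Ugt2b5* was called lower with only the groups compared or without *Dgat1*-/-AL replicate 1 or 3 (-0.5 each), or with array weights (-0.45). *Ugt3a2* was called lower without WTAL replicate 1 (-0.45), WTCR replicate 1 (-0.49) or WTCR replicate 2 (-0.45), or with array weights (-0.47).

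*Gstp1*, the pi class GST, was the clearest member that rose. Its log2 signal was 12.22, 12.36 and 12.84 in WTCR, 11.79, 11.42 and 11.65 in *Dgat1*-/-AL, and 11.34, 11.42 and 11.52 in WTAL. All 3 WTCR arrays lay above all 6 others, and the knockout and WTAL arrays overlapped. The difference between WTCR and WTAL was 1.05 ± 0.16, a 2.07-fold rise (adjusted p = 0.016). The other single-symbol pi class gene, *Gstp3*, had 0.12 ± 0.15 and was not called.

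*Gsta4* encodes the alpha class GST that conjugates hydroxynonenal, an aldehyde of lipid peroxidation. The 3 WTCR arrays gave log2 signals of 11.02, 10.54 and 10.43, the *Dgat1*-/-AL arrays 10.07, 9.54 and 10.22, and the WTAL arrays 8.86, 9.81 and 9.81. WTCR did not overlap with either group, and WTAL replicate 1 lay almost 1 log2 unit below the other WTAL arrays. The difference was 1.17 ± 0.29 (2.25-fold, adjusted p = 0.076). Without WTAL replicate 1 it was 0.85 and the call held. *Gsta3*, another alpha class enzyme, had a log2 fold change of 0.10 ± 0.16.

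Of the 8 probe sets of the mu class, 3 rose, 2 of them for *Gstm3*. *Gstm3* probe set 2 had log2 signals of 10.78, 10.38 and 10.98 in WTCR, 10.33, 8.79 and 10.00 in *Dgat1*-/-AL, and 8.19, 9.47 and 9.82 in WTAL, so that *Dgat1*-/-AL spanned most of the gap between the other groups. Its difference was 1.55 ± 0.48 (2.93-fold), and that of probe set 1 was 0.99 ± 0.31 (1.98-fold), with adjusted p of 0.15 and 0.16. *Gstm1* read 12.32, 11.99 and 12.05 in WTCR, 12.27, 11.14 and 11.31 in *Dgat1*-/-AL, and 10.83, 11.68 and 11.65 in WTAL. Its difference of 0.73 ± 0.32 (adjusted p = 0.32) was the least secure of the calls. It was lost when any of the 3 WTCR arrays, WTAL replicate 1 or *Dgat1*-/-AL replicate 3 was left out (0.45 to 0.88 over the 9 arrays left out in turn). The other 5 mu class probe sets were not called, at -0.06 to 0.37, and the highest of these, *Gstm5*, fell just short of the fold of 1.3 required (adjusted p = 0.10).

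**Figure D2:**
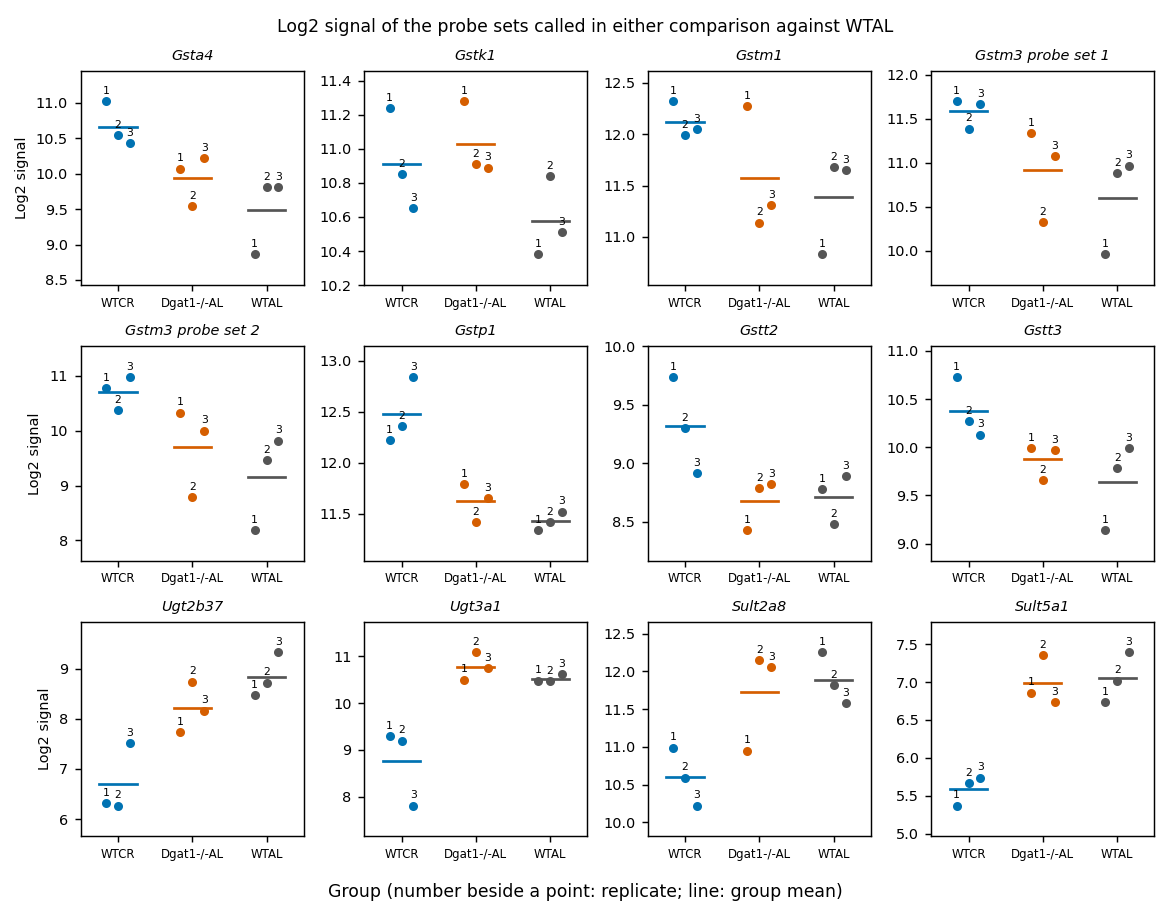
Log2 signal (y axis) of the 12 probe sets called in WTCR or *Dgat1*-/-AL against WTAL, in the 3 arrays of every group (x axis), where digits give the replicate and lines the mean of a group. WTCR does not overlap with WTAL in the 11 panels called there, but these probe sets were chosen by that same difference. WTAL replicate 1 is the lowest WTAL point for *Gsta4*, *Gstm1*, *Gstm3*, *Gstp1* and *Gstt3*.

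The theta class supplied 2 more calls among 4 probe sets. *Gstt3* had log2 signals of 10.73, 10.27 and 10.13 in WTCR, 9.99, 9.66 and 9.97 in *Dgat1*-/-AL, and 9.14, 9.78 and 9.99 in WTAL. WTCR lay above both other groups, which overlapped, and the difference from WTAL was 0.74 ± 0.23 (1.67-fold, adjusted p = 0.15). *Gstt2* read 9.74, 9.30 and 8.92 in WTCR, 8.43, 8.79 and 8.82 in *Dgat1*-/-AL, and 8.78, 8.48 and 8.89 in WTAL. Its lowest WTCR array only just cleared the highest WTAL array, at a difference of 0.60 ± 0.21 (adjusted p = 0.20). The *Gstt2* call ended without WTCR replicate 1 (0.39) or without the array labelled WTAL replicate 2 (0.48). The remaining theta genes, *Gstt1* and *Gstt4*, had log2 fold changes of 0.15 ± 0.14 and -0.19 ± 0.08.

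None of the 4 probe sets of the kappa, omega and zeta classes was called in WTCR. *Gstz1*, the zeta class isomerase of tyrosine breakdown, had a log2 fold change of 0.00 ± 0.12. *Gsto1*, the omega class enzyme known for reducing dehydroascorbate, had -0.21 ± 0.15, and *Gstk1*, the mitochondrial and peroxisomal kappa enzyme, had 0.34 ± 0.18.

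A single WTAL array bore on the whole GST family. WTAL replicate 1 was the lowest of the 3 WTAL arrays for 15 of 20 GST probe sets and for 6 of the 7 that rose, against 39.6% of all probe sets. The family median, taken as each probe set's difference from its mean over the 9 arrays, was 0.31, 0.05 and 0.04 in WTCR, 0.06, -0.03 and 0.09 in *Dgat1*-/-AL, and -0.43, -0.00 and -0.03 in WTAL. Apart from WTCR replicate 1 and WTAL replicate 1, the arrays of the 3 groups lay within -0.03 to 0.09. Without WTAL replicate 1, 7 GST probe sets were called higher and 1 lower, 3 UGT and 3 SULT were lower, and the GST median was 0.09.

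**Figure D3:**
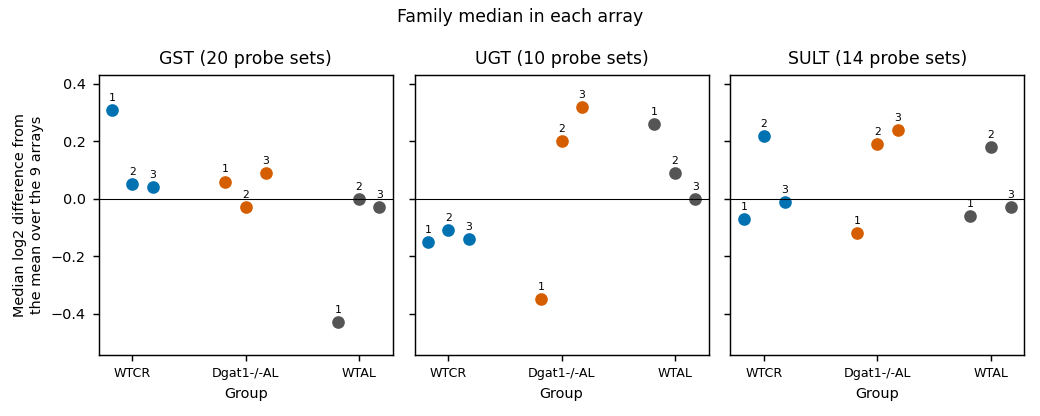
Median over the probe sets of each family (one panel each) of the log2 difference from the mean over the 9 arrays (y axis), for the 3 arrays of every group (x axis), where digits give the replicate. For GST, WTAL replicate 1 lies at -0.43 and WTCR replicate 1 at 0.31, and for UGT, *Dgat1*-/-AL replicate 1 lies at -0.35 while the 3 WTCR arrays lie between -0.15 and -0.11.

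Both UGT calls were deep. *Ugt2b37*, a member of the Ugt2b cluster, had log2 signals of 6.32, 6.27 and 7.51 in WTCR, 7.74, 8.74 and 8.16 in *Dgat1*-/-AL, and 8.47, 8.72 and 9.32 in WTAL. Every WTCR array lay below every array of the other groups. The difference between WTCR and WTAL was -2.14 ± 0.39, a 4.40-fold fall (adjusted p = 0.026).

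*Ugt3a1* belongs to a small family whose human member UGT3A1 transfers N-acetylglucosamine. It read 9.30, 9.20 and 7.81 in WTCR, 10.50, 11.08 and 10.74 in *Dgat1*-/-AL, and 10.48, 10.47 and 10.61 in WTAL. WTAL arrays were tightly grouped, WTCR replicate 3 was the lowest array, and the difference was -1.75 ± 0.35 (3.37-fold lower, adjusted p = 0.037). Its paralog *Ugt3a2* had a log2 fold change of -0.38 ± 0.15, with a fold just under the 1.3 required (adjusted p = 0.27), and its WTCR and WTAL arrays overlapped. The other 7 UGT probe sets, *Ugt2a3* and 6 of *Ugt2b*, ranged from -0.50 (*Ugt2b5*) to 0.42 (*Ugt2b35*) and were not called. *Ugt2b5* read 11.35, 11.73 and 11.72 in WTCR, 11.36, 12.02 and 12.29 in *Dgat1*-/-AL, and 12.37, 11.99 and 11.94 in WTAL. Its WTCR arrays all lay below its WTAL arrays, and the knockouts covered most of both ranges (adjusted p = 0.36). *Ugt2b36*, *Ugt2b1* and *Ugt2b34* were closest to WTAL, at -0.05 ± 0.15, -0.10 ± 0.18 and -0.11 ± 0.08.

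Among the sulfotransferases, *Sult5a1* had the smallest p of all 44 members. Its log2 signal was 5.37, 5.67 and 5.74 in WTCR, 6.86, 7.35 and 6.74 in *Dgat1*-/-AL, and 6.74, 7.02 and 7.39 in WTAL. The WTCR arrays were well below all others, and *Dgat1*-/-AL and WTAL covered the same range. The difference was -1.46 ± 0.20 (2.75-fold lower, adjusted p = 0.013). Its 3 WTCR signals lay below the median of all probe sets, and its mean over the 9 arrays passed that mark through the groups where it was high.

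*Sult2a8* encodes a sulfotransferase of bile acids in mouse liver. It had log2 signals of 10.99, 10.59 and 10.22 in WTCR, 10.95, 12.15 and 12.06 in *Dgat1*-/-AL, and 12.25, 11.82 and 11.58 in WTAL. WTCR lay below WTAL without overlap, while *Dgat1*-/-AL replicate 1 fell within the WTCR range. The difference from WTAL was -1.29 ± 0.34 (2.44-fold lower, adjusted p = 0.090). The single-symbol paralogs of the same family did not follow. *Sult2a3* had a log2 fold change of 1.03 ± 0.68 and *Sult2a6*, at low signal, 0.20 ± 0.17, and neither was called. Nor was *Sult2b1*, known for sulfating cholesterol and pregnenolone, at 0.02 ± 0.05.

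**Figure D4:**
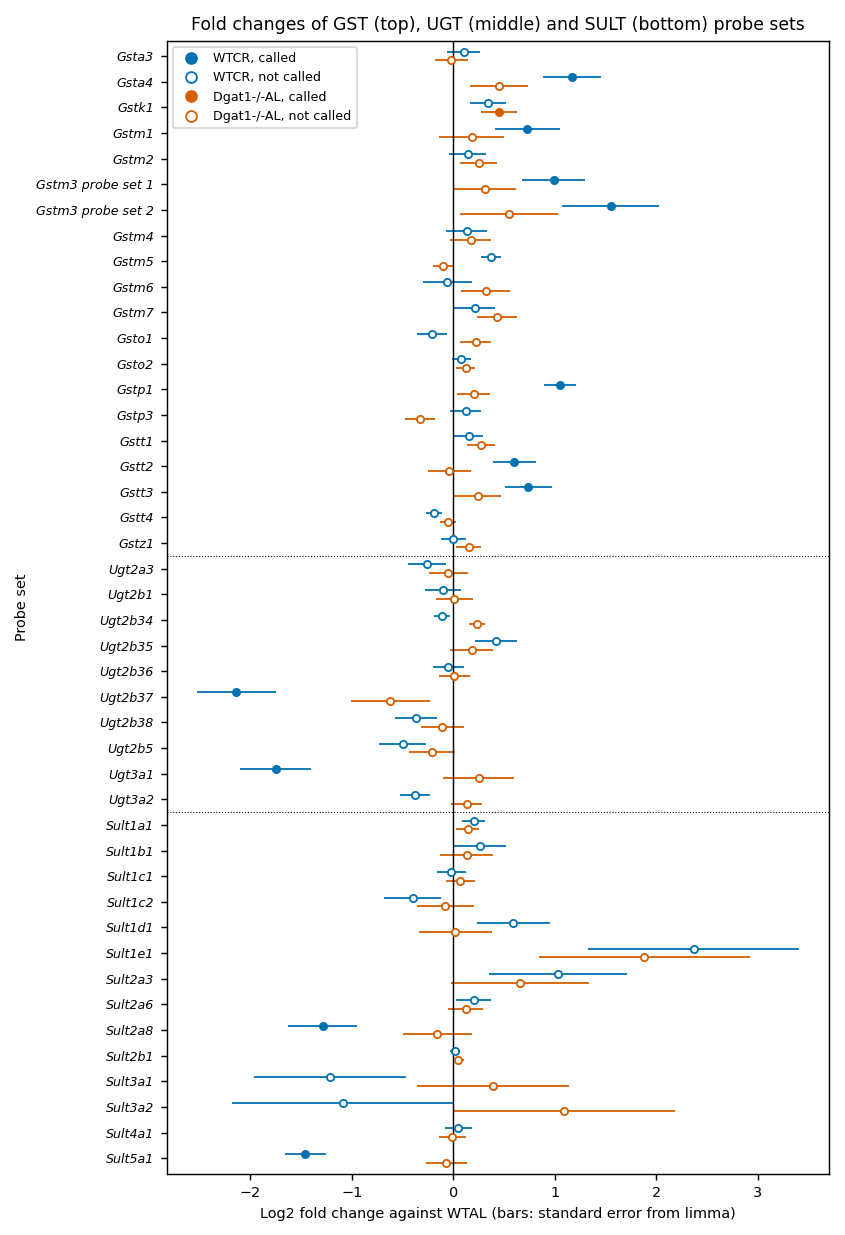
Log2 fold change against WTAL (x axis, bars are the standard error from limma) of each of the 44 member probe sets (y axis) in WTCR (blue) and *Dgat1*-/-AL (orange), with filled points for those called. In WTCR 7 GST probe sets are called above 0 and 2 UGT and 2 SULT probe sets below 0, while *Gstk1* is the 1 member called in *Dgat1*-/-AL.

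The 6 probe sets of SULT family 1 were not called, at -0.40 to 2.37. *Sult1a1*, which sulfates phenols, had 0.20 ± 0.11, and *Sult1b1*, known for sulfating thyroid hormones, had 0.26 ± 0.26. *Sult1d1*, a catecholamine sulfotransferase of the mouse, read 11.69, 12.28 and 12.14 in WTCR, 10.59, 11.82 and 12.00 in *Dgat1*-/-AL, and 11.57, 11.73 and 11.04 in WTAL, with 1 WTCR array inside the WTAL range (0.59 ± 0.36). *Sult1c2* had -0.40 ± 0.28, while *Sult1c1* and the brain enzyme *Sult4a1* stayed at low signal, 3.40 to 3.98 and 4.60 to 5.15 over the 9 arrays. *Sult1e1*, the estrogen sulfotransferase, carried the highest log2 fold change of all members, 2.37 ± 1.04, and was not called (adjusted p = 0.33). It gained the call when WTCR replicate 1, *Dgat1*-/-AL replicate 2 or 3, or the array labelled WTAL replicate 2 was left out (1.37 to 3.22 over the 9 arrays left out in turn). With all 9 arrays it was also called when probe sets of low signal were left out, with arrays centred on their median, with the trend and robust options of limma, or with array weights (2.37 to 2.62), so the absence of a SULT call higher in WTCR depended on the settings.

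*Sult1e1* was 1 of 4 members, all SULT, whose arrays of a single group spread over more than 2 log2 units, named here because of that spread. Its log2 signal was 8.84, 11.12 and 10.48 in WTCR, 9.60, 8.22 and 11.15 in *Dgat1*-/-AL, and 8.08, 9.48 and 5.77 in WTAL. *Sult3a2* was as uneven, at 4.88, 8.88 and 7.74 in WTCR, 9.32, 10.88 and 7.82 in *Dgat1*-/-AL, and 7.32, 9.43 and 8.01 in WTAL. Its neighbor *Sult3a1* ranged over 2.84 log2 units within WTCR, 2.29 within *Dgat1*-/-AL and 0.96 within WTAL. In both *Sult3a* genes replicate 2 was the highest array of every group. *Sult2a3* ranged over 2.81 log2 units within WTAL, where replicate 1 read 7.45 against 10.26 and 9.76 in the others. By median, the widest range within a group was 1.13 log2 units for SULT, 0.76 for UGT and 0.69 for GST. At this spread the 95% interval of the *Sult3a2* difference between WTCR and WTAL ran from -3.58 to 1.40, and that of *Sult1e1* from -0.00 to 4.74.

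**Figure D5:**
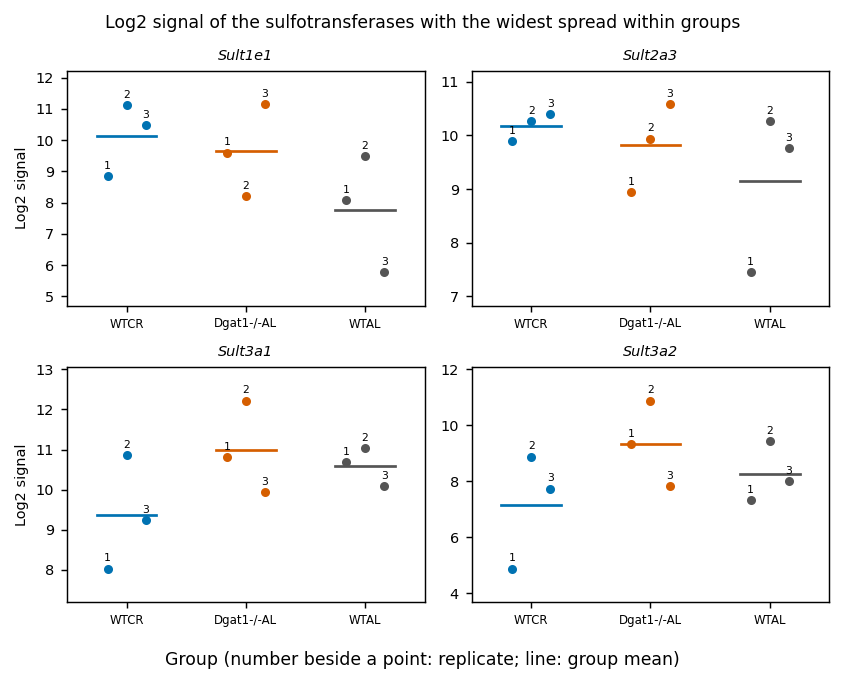
Log2 signal (y axis) of the 4 sulfotransferases whose range within a group exceeded 2 log2 units, in the 3 arrays of every group (x axis), where digits give the replicate and lines the mean of a group. All 3 groups overlap in each panel.

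Near-identical paralogs can bind the same probes, so the levels of single mu, pi and *Ugt3a* genes are uncertain. For the 4 members with an adjusted p under 0.05 in WTCR, the 250 bases before the transcription start are shown from RefSeq (GRCm38.p6), because the differences in these genes passed the stricter threshold. Their positions are chr19:4037913-4038162 on the minus strand for *Gstp1*, chr5:87254789-87255038 (minus) for *Ugt2b37*, chr15:9279579-9279828 (plus) for *Ugt3a1* and chr8:123158281-123158530 (minus) for *Sult5a1*. Capitals mark the letters of an AP-1 site (TGANTCA, *Gstp1* and *Ugt2b37*) or of a TATA box (TATAAA, *Ugt3a1*). The *Ugt3a1* match begins at position -8 from the start.
Gstp1: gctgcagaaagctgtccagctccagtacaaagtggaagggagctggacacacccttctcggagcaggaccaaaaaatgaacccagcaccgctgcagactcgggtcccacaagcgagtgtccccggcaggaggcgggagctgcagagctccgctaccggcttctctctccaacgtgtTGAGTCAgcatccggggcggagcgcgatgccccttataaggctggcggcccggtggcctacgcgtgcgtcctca
Ugt2b37: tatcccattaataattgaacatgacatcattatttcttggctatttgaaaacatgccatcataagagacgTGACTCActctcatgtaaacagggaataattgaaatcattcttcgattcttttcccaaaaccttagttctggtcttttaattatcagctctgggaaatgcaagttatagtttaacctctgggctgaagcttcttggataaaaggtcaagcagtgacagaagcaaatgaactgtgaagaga
Ugt3a1: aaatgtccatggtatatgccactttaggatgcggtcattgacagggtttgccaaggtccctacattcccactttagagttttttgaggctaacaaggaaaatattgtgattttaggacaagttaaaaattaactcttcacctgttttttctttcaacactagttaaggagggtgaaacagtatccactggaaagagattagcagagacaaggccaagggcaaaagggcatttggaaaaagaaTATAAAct
Sult5a1: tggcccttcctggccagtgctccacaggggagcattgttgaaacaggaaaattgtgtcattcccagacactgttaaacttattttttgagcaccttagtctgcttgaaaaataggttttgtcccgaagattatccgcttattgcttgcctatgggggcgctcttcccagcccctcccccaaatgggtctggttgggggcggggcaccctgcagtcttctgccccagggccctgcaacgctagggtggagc

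The promoter table held 39 of the 43 member genes and 8 of the 10 genes called in WTCR, *Gsta4* and *Gstt2* being named only. Each window of 250 bases before to 50 after the start was searched on both strands. The antioxidant response element core TGACNNNGC was in 12.4% of all 32851 promoters, the xenobiotic response element core TNGCGTG in 5.07% and the D-box TTATGTAA, bound by the PAR bZIP factors, in 0.938%. As spelled here, none of these 3 was in a promoter of the 8 called genes, and other spellings of them were not searched. Among all member genes the first was found in *Gsta3*, *Gstm5* and *Gstm7*, the second in *Sult1d1* and the third in *Ugt2b1*, none of which was called in WTCR. The AP-1 site and the TATA box were added after the sequences had been read, and stand in 7.81% and 13.6% of all promoters. The AP-1 site was found in 10 member genes, of which 3 were called in WTCR (*Gstp1*, *Ugt2b37* and *Sult2a8*) and 7 were not (*Gstm5*, *Sult1b1*, *Sult1c1*, *Sult2b1*, *Ugt2b1*, *Ugt2b35* and *Ugt2b38*). The TATA box letters were found in 9, of which 3 were called (*Gstm1*, *Ugt3a1* and *Sult2a8*). They begin at -30 in *Gstm1*, at -8 in *Ugt3a1*, and at -29 and, on the minus strand, -223 in different promoters of *Sult2a8*. The AP-1 match of *Gstp1*, TGAGTCA, begins at position -74 from the start, and that of *Ugt2b37*, TGACTCA, at -180. The motifs as searched do not overlap in the printed promoters, and a match describes letters and not binding.

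By RefSeq position (GRCm38.p6), all 43 member genes were placed, and neighbors with a gap under 200 kb were grouped. The longest run, on chromosome 5, held 11 member genes, 8 of *Ugt2* followed by *Sult1b1*, *Sult1d1* and *Sult1e1*, and *Ugt2b37* was the 1 gene of the run called in WTCR. The 7 *Gstm* genes lie together on chromosome 3 with *Gstm3* and *Gstm1* higher, and the 4 *Gstt* genes lie together on chromosome 10 with *Gstt3* and *Gstt2* higher. *Ugt3a1* and *Ugt3a2* adjoin on chromosome 15, *Gstp1* and *Gstp3* on chromosome 19, and *Sult2a8* lies with *Sult2a3* and *Sult2a6* on chromosome 7. Within each of these groups the genes called in WTCR against WTAL stood beside members that were not called. Set against *Dgat1*-/-AL, WTCR was called lower in the 2 *Ugt3a* genes and higher in the 2 *Gstp* genes.

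In *Dgat1*-/-AL livers 1 member was called higher than in WTAL, *Gstk1*, and 0 were lower. That was 2.27% of the members, against 1.23% of all probe sets (0.465% higher and 0.76% lower). At an adjusted p under 0.05 limma called 0 members and 0.0% of all probe sets, and 2 members had an unadjusted p under 0.05. *Gstk1* had log2 signals of 11.28, 10.91 and 10.89 in *Dgat1*-/-AL, and 10.38, 10.84 and 10.51 in WTAL. The groups just missed overlapping, and the difference was 0.45 ± 0.18 (1.37-fold, adjusted p = 0.97). The call ended when WTAL replicate 1 or 3, *Dgat1*-/-AL replicate 1 or WTCR replicate 2 was left out, with a range of 0.32 to 0.58 over all 9. The other was *Ugt2b34*, with 11.95, 12.14 and 12.14 in *Dgat1*-/-AL against 11.81, 11.86 and 11.86 in WTAL, a difference of 0.23 ± 0.08 that fell short of the fold required.

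Both comparisons subtract the same 3 WTAL arrays, so each is given by its own values. Among the members called in WTCR, *Dgat1*-/-AL differed from WTAL by 0.20 for *Gstp1* (95% interval -0.17 to 0.56), 0.45 for *Gsta4* (-0.21 to 1.11), 0.25 for *Ugt3a1* (-0.55 to 1.05) and -0.07 for *Sult5a1* (-0.53 to 0.39). *Ugt2b37* had -0.62 (-1.50 to 0.25), *Sult2a8* -0.16 (-0.92 to 0.60) and *Gstt2* -0.04 (-0.51 to 0.44). For the other 4 probe sets *Dgat1*-/-AL was at 0.18 for *Gstm1* (-0.54 to 0.90), 0.31 and 0.55 for the *Gstm3* probe sets (-0.40 to 1.02 and -0.55 to 1.64) and 0.24 for *Gstt3* (-0.29 to 0.76). These intervals cannot separate the groups, since the members were chosen by their WTCR difference and its error is left out. Whether the groups differ was tested by setting WTCR against *Dgat1*-/-AL. That test uses the same WTCR arrays by which these members were chosen, so for them it is not free of that choice. In *Dgat1*-/-AL the family medians were 0.21 for GST, 0.01 for UGT and 0.09 for SULT, against -0.0 over all probe sets, and the GST median was 0.04 without WTAL replicate 1. Without the array labelled WTAL replicate 2, 3 members were called higher, 2 GST and 1 SULT. Without *Dgat1*-/-AL replicate 1, 0 GST and 1 SULT were.

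WTCR and *Dgat1*-/-AL livers were also compared directly. WTCR was higher in 5 members, all GST (*Gsta4*, *Gstm5*, *Gstp1*, *Gstp3* and *Gstt2*), and lower in 6 (*Gsto1*, *Ugt2b37*, *Ugt3a1*, *Ugt3a2*, *Sult2a8* and *Sult5a1*). These 11 were 25% of the members, against 8.59% of all probe sets (4.66% higher and 3.93% lower). At an adjusted p under 0.05, 9.09% of the members and 3.06% of all probe sets were called.

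*Ugt3a1* gave the greatest difference between the groups among the called members, -2.0 ± 0.35 (adjusted p = 0.024), followed by *Ugt2b37* at -1.51 ± 0.39 (adjusted p = 0.080) and *Sult5a1* at -1.39 ± 0.20 (adjusted p = 0.013). *Ugt3a2* read 11.19, 11.10 and 10.60 in WTCR and 11.52, 11.50 and 11.39 in *Dgat1*-/-AL, so that here both *Ugt3a* paralogs were lower in WTCR (-0.51 ± 0.15, adjusted p = 0.12). *Sult2a8* was lower in WTCR by -1.12 ± 0.34, and by -1.51 without *Dgat1*-/-AL replicate 1, which was the array that overlapped with WTCR.

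On the GST side, *Gstp1* was higher in WTCR by 0.85 ± 0.16 (adjusted p = 0.030), *Gsta4* by 0.72 ± 0.29 (adjusted p = 0.27) and *Gstt2* by 0.64 ± 0.21 (adjusted p = 0.16). The *Gsta4* call ended with array weights, and when *Dgat1*-/-AL replicate 2 or either of WTCR replicates 1 and 2 was left out (0.52 to 0.86 over the arrays left out), and the *Gstt2* call ended without *Dgat1*-/-AL replicate 1 and with array weights (0.46). *Gstm5* read 7.92, 8.06 and 8.26 in WTCR and 7.52, 7.65 and 7.66 in *Dgat1*-/-AL, a difference of 0.47 ± 0.10 with an adjusted p of 0.046. *Gstp3* read 8.10, 7.98 and 8.27 in WTCR against 7.54, 7.84 and 7.64 in *Dgat1*-/-AL (0.45 ± 0.15, adjusted p = 0.18), a call that ended without WTCR replicate 3 or *Dgat1*-/-AL replicate 1. *Gsto1* went the other way, at 9.71, 9.66 and 9.44 in WTCR and 10.14, 9.90 and 10.08 in *Dgat1*-/-AL (-0.44 ± 0.15, adjusted p = 0.19), while its WTAL arrays, at 9.47, 9.88 and 10.09, covered most of both ranges. *Ugt2b34* differed by -0.34 ± 0.08 (adjusted p = 0.052) without reaching the fold required. The *Gsto1* call ended without WTCR replicate 3 or *Dgat1*-/-AL replicate 1 or 3, and that of *Ugt3a2* without WTCR replicate 3.

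The calls also depended on which arrays set the spread. With only the 6 arrays of these groups, 8 members were higher in WTCR, the additions being both *Gstm3* probe sets (0.67 and 1.01) and *Gstt3* (0.51). Since same-numbered mice of these groups deviated together, the replicate number was also fitted as a block. No source used here says what the number stands for. In the same 6 arrays the block gave 9 higher, adding *Gstm1* (0.55) and *Sult1d1* (0.57) and ending the call of *Gstt2* (0.64, adjusted p = 0.29), and *Sult3a1* (-1.61) joined the lower members. Over all 9 arrays the block gave 4 higher, ending the call of *Gsta4*, and added *Sult3a1* and *Sult3a2* (-2.17) to the lower members. With the block in 6 arrays the smallest adjusted p of the members was that of *Sult5a1* (adjusted p = 0.0504). Without *Dgat1*-/-AL replicate 1, the lowest knockout array of the UGT family by median (-0.35, against 0.20 and 0.32), 7 of 10 UGT probe sets were lower in WTCR in place of 3, and the UGT median was -0.48 in place of -0.28.

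Genes that supply, export or hydrolyse conjugates, or that conjugate outside the rule, were read from lists of named genes. The list counts stand beside the share of all probe sets called. Against WTAL this share was 8.06% in WTCR (4.25% higher and 3.81% lower) and 1.23% in *Dgat1*-/-AL. Between WTCR and *Dgat1*-/-AL it was 8.59%. Of 11 genes of cosubstrate supply 2 rose and 1 fell in WTCR. *Gss*, glutathione synthetase, was higher than in WTAL by 0.87 ± 0.22 and *Gsr*, glutathione reductase, by 0.49 ± 0.13. *Slc26a1*, a sulfate transporter, was lower by -0.51 ± 0.21. *Gclc*, the catalytic subunit of glutamate cysteine ligase, differed by -0.62 ± 0.09 between WTCR and *Dgat1*-/-AL (adjusted p = 0.015), with mean log2 signals of 10.24 ± 0.15 in WTCR, 10.86 ± 0.12 in *Dgat1*-/-AL and 10.51 ± 0.04 in WTAL (SD). In *Dgat1*-/-AL 0 of the 11 were called against WTAL.

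Of 8 genes of export and hydrolysis 2 rose in WTCR, the canalicular exporter *Abcg2* (0.73 ± 0.08, adjusted p = 0.0074) and the beta-glucuronidase *Gusb* (0.47 ± 0.21), and 0 were called in *Dgat1*-/-AL. *Abcg2* read 8.91, 8.98 and 9.10 in WTCR, 8.46, 8.40 and 8.47 in *Dgat1*-/-AL and 8.24, 8.16 and 8.41 in WTAL, without overlap between WTCR and the others. Of 16 other conjugating enzymes, *Mgst3*, a membrane-bound GST, rose in WTCR (0.68 ± 0.14, adjusted p = 0.039), and *Tpmt*, the thiopurine methyltransferase, rose by 0.42 ± 0.10 in WTCR and by 0.42 ± 0.10 in *Dgat1*-/-AL. *Mgst3* read 8.54, 8.68 and 8.53 in WTCR, 7.41, 7.67 and 7.77 in *Dgat1*-/-AL, and 7.61, 8.06 and 8.06 in WTAL, so the knockouts lay furthest from WTCR (0.97 higher in WTCR, adjusted p = 0.013). The methyltransferase *Nnmt*, the acetyltransferase *Nat1* and the glycine conjugating enzyme *Glyat* were lower in WTCR than in the knockouts, by -0.56, -0.75 and -0.44. Their adjusted p from limma was 0.22, 0.2 and 0.13, and in each the arrays of these groups overlapped. The mean signal of *Nat1* lay below the median of all probe sets.

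Among 14 receptors of foreign compounds, their partners and target genes, 6 rose in WTCR and 0 in *Dgat1*-/-AL. Of all probe sets 4.25% were higher and 3.81% lower in WTCR than in WTAL, and 0.465% were higher in *Dgat1*-/-AL. The targets *Cyp3a11* (1.33 ± 0.46), *Cyp2b10* (1.02 ± 0.32) and *Nqo1* (0.70 ± 0.18) had the largest differences, followed by *Nr1h4*, the bile acid receptor (0.42 ± 0.16), with adjusted p of 0.083 to 0.24. The pregnane X receptor *Nr1i2* was also called higher (0.41 ± 0.10, adjusted p = 0.066). The sensors *Nr1i3* (0.23 ± 0.18), *Ahr* (0.02 ± 0.16) and *Nfe2l2* (-0.05 ± 0.20) were not called. The mean log2 signal of this list was 9.63 to 9.78 in WTCR, 9.23 to 9.43 in *Dgat1*-/-AL and 9.18 to 9.33 in WTAL. Of 13 clock genes, which include the PAR bZIP factors known to act on genes of drug metabolism, 9 were higher and 1 lower in WTCR, while *Dgat1*-/-AL had 0 calls. Their mean was 7.65 to 7.88 in WTCR, 7.16 to 7.52 in *Dgat1*-/-AL and 7.23 to 7.28 in WTAL, and the part of either list in the member calls was not tested. The time of day and of the last meal at which livers were taken is not given in the sources used here.

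Markers of other liver cells moved in both WTCR and *Dgat1*-/-AL. Against WTAL 3 of 7 Kupffer cell and macrophage markers, 3 of 3 B and plasma cell markers, 2 of 4 T and NK cell markers, 2 of 5 stellate cell markers and 1 of 5 sinusoidal endothelium markers were lower in WTCR. In *Dgat1*-/-AL 3 of 7 Kupffer cell and macrophage markers, 1 of 3 B and plasma cell markers and 2 of 5 endothelium markers were lower, 1 of 5 endothelium markers was higher, and 0 T, NK and stellate cell markers were called. Of all probe sets 3.81% were lower in WTCR, and 0.76% were lower and 0.465% higher in *Dgat1*-/-AL. B and plasma cell markers averaged a log2 signal of 4.50 to 4.56 in WTCR, 4.64 to 5.24 in *Dgat1*-/-AL and 5.40 to 5.93 in WTAL, close to or below the median of all probe sets. Kupffer cell markers averaged 8.08 to 8.78 in WTCR, 8.13 to 8.55 in *Dgat1*-/-AL and 8.41 to 9.10 in WTAL. In whole liver, fewer cells of a type and less RNA per cell cannot be told apart, and the part of these shifts in the member calls was not tested. Cholangiocyte markers, 0 of 4 called, averaged 5.66 to 5.69 in WTCR, 5.68 to 5.85 in *Dgat1*-/-AL and 5.66 to 5.78 in WTAL.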

How the data were processed

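Liver RNA of 9 mice, 3 each of WTCR, Dgat1-/-AL and WTAL, was hybridized by the authors to Affymetrix Mouse Gene 1.0 ST arrays. The deposited values are log2 signals made by the authors with RMA, which corrects background, quantile-normalizes and summarizes the probes of a probe set, and the version is not given in the sources used here. Every column was used (0 left out). Of 28815 probe sets 21780 carried 1 gene symbol, 1605 several and 5430 none, and genes were named only from a single symbol. The members and lists were chosen with earlier results of these data known.

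limma 3.58.1 (R 4.3.3) fitted 1 mean per group to each probe set, with a spread for each probe set shared by the 3 groups and moderated over the array, tested on simulated data beforehand. The simulated shifts were placed only in probe sets with a spread no larger than the median. How often shifts in probe sets of wider spread are called was therefore not tested. Calls used the fold over 1.3 and unadjusted p under 0.05 of the study, and all called members were named. Tables and plots were made with Python 3.11.15. Over all probe sets, same-numbered WTCR and Dgat1-/-AL arrays deviated together (r = 0.477, 0.252 and 0.211). Same-numbered arrays did not do so against WTAL (r = -0.325 to 0.0454). Over all 3 groups the correlation within a replicate number was -0.008. The numbers were taken from the sample titles, and no source used here says that they pair mice. The plain t-test given below is an unmoderated t-test of the groups compared, assuming equal variances. The methods took their t-test p-values with limma, so its counts are not those of the study's own test. The number of arrays limits precision.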

Additional observations from a re-analysis of the deposited data

How the results depend on the processing

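With each of the 9 arrays left out in turn, the calls of *Gsta4*, *Gstm3*, *Gstp1*, *Gstt3*, *Ugt2b37*, *Ugt3a1*, *Sult2a8* and *Sult5a1* in WTCR against WTAL held, and those of *Gstm1* and *Gstt2* did not. *Sult3a2*, which was not called, had 0.06 without WTCR replicate 1 in place of -1.09 (-1.94 to 0.06 over the arrays left out). The 7 members higher in WTCR than WTAL became 11 with array weights and 4 with the plain t-test. They became 2 at a fold over 1.5 with p under 0.01 and 1 at an adjusted p under 0.05. With the plain t-test after Benjamini-Hochberg adjustment they became 0. The 4 lower became 0 with that last test. With 1 array left out there were 7 to 9 higher and 4 to 7 lower, the 7 lower without WTAL replicate 1. The 1 member higher in *Dgat1*-/-AL became 2 with only the groups compared. It became 0 with array weights or with the plain t-test before or after adjustment. It was also 0 at an adjusted p under 0.05, or at a fold over 1.5 with p under 0.01. With 1 array left out it was 0 to 3 higher and 0 to 1 lower, 0 higher without WTAL replicate 1 or 3 or WTCR replicate 2, 2 without WTCR replicate 1, and 3 without the array labelled WTAL replicate 2 or without *Dgat1*-/-AL replicate 2. The 1 lower came without WTAL replicate 1 or *Dgat1*-/-AL replicate 2.

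Between WTCR and *Dgat1*-/-AL, the 5 higher became 8 with only the groups compared. With the replicate block in those groups (chosen after seeing the data) they became 9. The plain t-test gave 3 before and 0 after adjustment. They became 2 at an adjusted p under 0.05 and 1 at a fold over 1.5 with p under 0.01. The 6 lower became 2 at an adjusted p under 0.05 and 0 with the plain t-test after adjustment. With 1 array left out there were 4 to 8 higher (8 without WTAL replicate 1) and 4 to 9 lower. The GST median of 0.04 became 0.28 when probe sets of low signal were left out. Same-numbered arrays of WTAL and the other groups did not deviate together. Over all 3 comparisons, an array's best match in the other group carried its own number in 7 of 18 cases. Against WTAL the replicate block ended the call of *Gstm1* (0.73) and gave *Sult3a1* one (-1.22) in WTCR. The cause of these shifts was not tested.

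Leaving out 1 array moved the genes called in the lists to 2 to 4 for cosubstrate supply, 1 to 3 for export and hydrolysis, 1 to 3 for other conjugation, 3 to 7 for receptors and 10 to 12 for clock genes in WTCR. In *Dgat1*-/-AL they were 0 to 3, 0, 0 to 3, 0 and 0 to 1 in that order. In the direct comparison they were 2 to 5, 1 to 2, 2 to 4, 3 to 5 and 8 to 10, and the GST median of *Dgat1*-/-AL against WTAL was 0.04 to 0.32. With 3 arrays per group, a standard error of 0.05 to 1.09 limits what could be called.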

Other observations

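A further 11 probe sets carried a symbol of these families among several, and were not members, since none can be given to a single gene. In WTCR 4 that carry alpha class GST symbols were higher than in WTAL by 1.90 to 2.05 (adjusted p = 0.11 to 0.12 from limma), above the difference of any single-symbol GST. In *Dgat1*-/-AL the same 4 differed from WTAL by 1.02 to 1.19 and were not called. Their WTAL replicate 1 read 7.36 to 7.61, against 9.03 to 10.02 in the other WTAL arrays. Without it the differences were 1.26 to 1.32 in WTCR and 0.35 to 0.46 in *Dgat1*-/-AL, and without the array labelled WTAL replicate 2 they were 2.32 to 2.53 in WTCR and 1.44 to 1.67 in *Dgat1*-/-AL, where all 4 were then called higher (adjusted p = 0.94 to 0.97). A pair with pi class symbols was higher in WTCR by 0.98 to 1.02 against WTAL (adjusted p = 0.027 to 0.028) and by 0.93 to 0.94 against *Dgat1*-/-AL (adjusted p = 0.033 to 0.038). A pair with *Ugt3a* symbols was lower in WTCR by -0.64 to -0.60 against WTAL and by -0.67 to -0.63 against *Dgat1*-/-AL. The probe set of the *Ugt1a* transcripts, which include the bilirubin UGT, differed from WTAL by 0.33 in WTCR and by 0.10 in *Dgat1*-/-AL, neither of them a call.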
